A study of Mus musculus with 8 samples.

Results

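The norepinephrine transporter gene *Slc6a2* and 8 adrenergic receptor genes (*Adra1a*, *Adra1b*, *Adra1d*, *Adra2a*, *Adra2b*, *Adra2c*, *Adrb1* and *Adrb3*) were examined in the uteri of *Ezh2 Amhr2*-Cre conditional knockout (cKO) and control mice at postnatal day 10 (PD10). These 9 genes were found by symbol among the 16658 genes tested of the 27179 genes counted. *Slc6a2* was chosen because it was lower in every cKO library, so its difference between genotypes is given as a description with no test. The receptor genes were chosen by family name and not by value. All 9 genes passed the filter on low counts, and *Adra2b*, the lowest of them, exceeded the filter of 0.2 CPM (counts scaled to the normalized library size) in 8 of 8 libraries.

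RNA-seq was made from whole uteri of 4 control mice (labelled Ezh2 f/f) and 4 cKO mice (labelled Ezh2 f/f; Acre), all at PD10 and on a mixed C57BL/6 and 129SvEv background. Both genotypes carried the floxed *Ezh2* allele, and only the cKO mice carried Cre recombinase, driven by *Amhr2* in cells that derive from the uterine mesenchyme, so that the epithelium keeps EZH2. The libraries held 25287141 to 36685807 counts. The control libraries held 35.4 to 54.7 CPM of *Ezh2* and the cKO libraries 30.4 to 40.7 CPM, and the genotypes overlapped (log2 fold change -0.29, standard error (SE) 0.13, adjusted p = 0.247 in edgeR). These counts are over the whole gene and the whole uterus, so they check the labels only in part. The study itself reported recombination of the allele, lower *Ezh2* mRNA and weaker EZH2 staining of stromal cells in cKO uteri.

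Norepinephrine is released by sympathetic nerves, whose fibres reach uterine blood vessels and smooth muscle while their cell bodies lie in ganglia outside the organ. The transporter encoded by *Slc6a2* takes norepinephrine back into cells with sodium and chloride and so ends its action. Alpha-1 receptors act through Gq proteins and raise intracellular calcium, alpha-2 receptors act through Gi proteins and lower cyclic AMP, and beta receptors act through Gs proteins and raise it.

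The promoter table of RefSeq (GRCm38.p6) held windows for 5 of the 9 genes, *Adra1b*, *Adra2a*, *Adra2b*, *Adra2c* and *Adrb1*. *Slc6a2*, *Adra1a*, *Adra1d* and *Adrb3* had none. The 250 bases before the transcription start of *Adra2b* (chr2:127362929-127363178, plus strand) and *Adrb1* (chr19:56721867-56722116, plus strand) are shown because Polycomb repressive complex 2, of which EZH2 is the enzyme, is known to bind CpG-rich promoters, and because these are low-level receptors. Among the 6 windows of these genes, both held the most CG in these 250 bases, which leave out the bases after the start. Capitals mark each CG dinucleotide, which reads the same on both strands.
Adra2b: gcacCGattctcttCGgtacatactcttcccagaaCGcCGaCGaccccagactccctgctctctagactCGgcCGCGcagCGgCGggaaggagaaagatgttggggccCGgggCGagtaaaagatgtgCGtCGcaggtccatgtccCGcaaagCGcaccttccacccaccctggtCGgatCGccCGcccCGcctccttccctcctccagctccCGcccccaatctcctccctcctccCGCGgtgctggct
Adrb1: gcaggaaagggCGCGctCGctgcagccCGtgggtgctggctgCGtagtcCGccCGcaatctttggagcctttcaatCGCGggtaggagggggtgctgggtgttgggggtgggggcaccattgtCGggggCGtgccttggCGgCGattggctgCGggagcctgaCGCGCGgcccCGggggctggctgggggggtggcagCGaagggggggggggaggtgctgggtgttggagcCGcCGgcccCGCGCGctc
The *Adra2b* stretch held 23 CG and the *Adrb1* stretch held 24. Of 32851 windows in the table, 13.3% held at least 23 CG in these 250 bases and 12.0% held at least 24. *Adra2a*, the receptor gene with the highest level per length, held 22, and *Adra2c* held 6. *Adra1b* had a start with 3 and another with 22. None of these 5 genes passed the test between genotypes.

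*Slc6a2* lies on chromosome 8 of GRCm38 from 92960470 to 93001667 (Entrez 20538). It was at 133, 129, 133 and 135 CPM in control replicates 1 to 4. The level was 59.5, 71.2, 70.0 and 72.7 CPM in cKO replicates 1 to 4. Every cKO library was under every control library, a separation that 6.43% of all genes tested showed in this direction and for which the gene was chosen, and cKO replicate 1 was the lowest of all. Control uteri averaged 132 ± 2.63 CPM and cKO uteri 68.3 ± 6.01 CPM (SD, n = 4 per genotype), with a log2 fold change of -0.95 (SE 0.07). The expression in cKO uteri was 0.517 times that in control uteri, just short of the 2-fold change that the study used. Of all genes tested, 0.636% passed that change in this direction together with an adjusted p under 0.05 in edgeR. In bulk tissue, fewer cells that express a gene and less RNA per cell cannot be told apart.

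**Figure D1:**
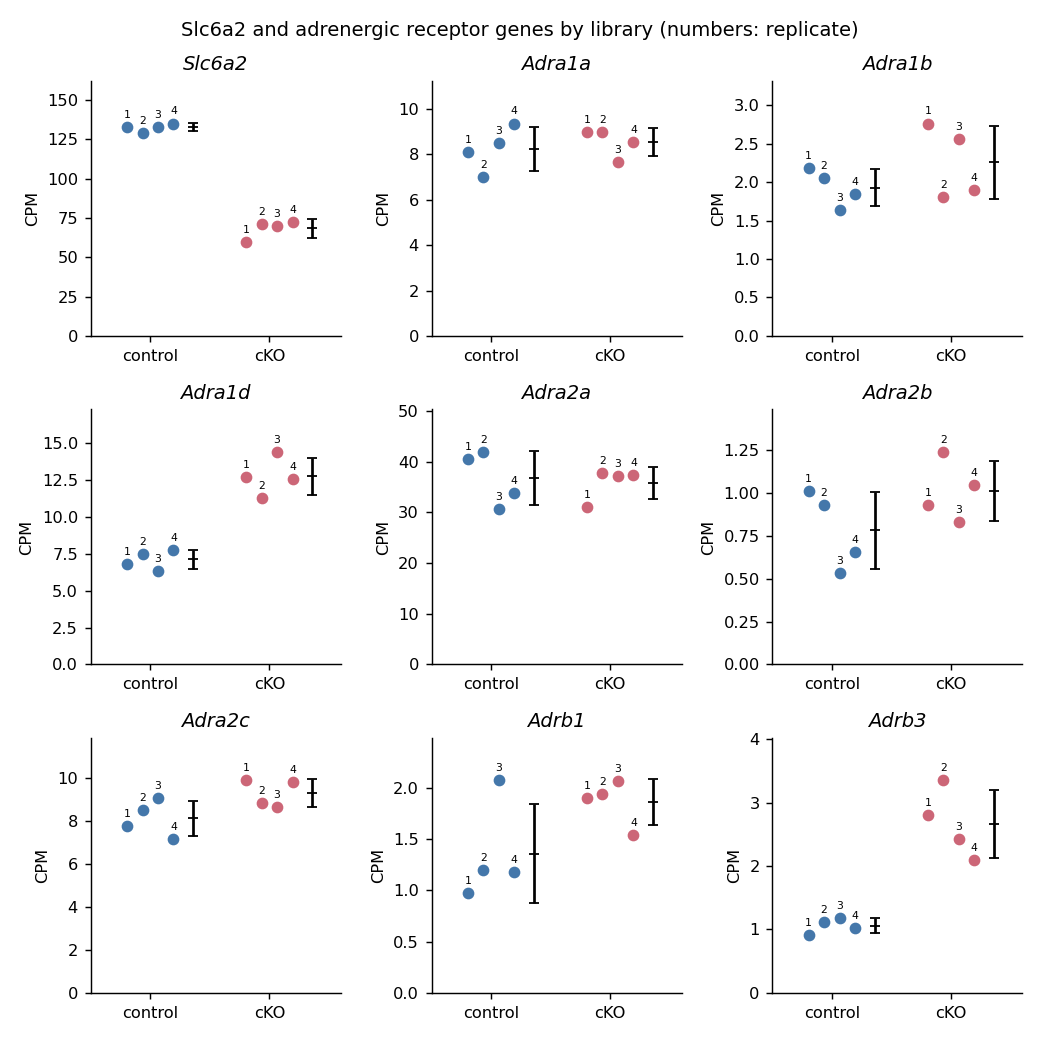
CPM of each gene in each library, with control in blue and cKO in red. Numbers give the replicate, bars give the mean and SD of 4 libraries, and each vertical axis starts at 0. *Slc6a2* was lower and *Adra1d* and *Adrb3* were higher in every cKO library than in any control library, and the genotypes overlapped in the other 6 genes.

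The coefficient of variation of *Slc6a2* was 1.99% among control and 8.79% among cKO libraries, where counting alone would give 1.57% and 2.24%. This small spread belongs to the values for which the gene was chosen and is given as a description.

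Among the 8 receptor genes, *Adra1d* and *Adrb3*, 2 genes, rose in the cKO libraries in the quasi-likelihood test of edgeR, and none fell. This is 25.0% of the receptor genes, where 2.62% of all genes tested were higher and 2.71% lower with an adjusted p-value under 0.05. The median log2 fold change of the 8 genes was 0.30, against 0.00044 over all genes tested. Of the 8, 7 had a log2 fold change above 0. The rises of *Adra1d* and *Adrb3* went opposite to the difference in *Slc6a2*.

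*Adra1d* encodes an alpha-1 receptor known for the contraction of vascular smooth muscle (Entrez 11550, chromosome 2 from 131545357 to 131562497). Its level was 6.84, 7.50, 6.35 and 7.77 CPM in control replicates 1 to 4 and 12.7, 11.3, 14.4 and 12.6 CPM in cKO replicates 1 to 4. No cKO library overlapped a control library, which held for 5.9% of all genes tested in this direction. The mean rose from 7.12 ± 0.642 (control) to 12.8 ± 1.25 CPM (cKO, SD, n = 4 per genotype), with log2 fold change 0.84 and SE 0.11 (adjusted p = 0.000704 in edgeR). Its adjusted p-value stayed under 0.05 without any single library, with a highest value of 0.00456 without control replicate 1.

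*Adrb3* encodes the beta-3 receptor, known for lipolysis in fat cells and for relaxation of bladder smooth muscle (Entrez 11556, chromosome 8 from 27225776 to 27230845). It was at 0.915, 1.12, 1.18 and 1.02 CPM in control replicates 1 to 4 and at 2.80, 3.35, 2.43 and 2.10 CPM in cKO replicates 1 to 4. Each cKO library was above each control library, and cKO replicate 2 was the highest. The mean rose from 1.06 ± 0.116 (control) to 2.67 ± 0.533 CPM (cKO, SD, n = 4 per genotype), with log2 fold change 1.34 and SE 0.20 (adjusted p = 0.00204 in edgeR). It passed both thresholds of the study, a 2-fold change and an adjusted p under 0.05, as 0.666% of all genes tested did in this direction. *Adra1d* did not reach the 2-fold change.

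Fat markers moved with cKO replicates 1 to 3 and are given beside these genes. Summed over a list of 13 fat genes, control libraries held 18.0 to 29.3 CPM and cKO libraries 18.7 to 341 CPM. The fat score of a library, its mean log2(CPM + 0.1) over the 10 list genes tested, was 3.49, 4.24 and 3.49 in cKO replicates 1 to 3. It was -0.54 in cKO replicate 4 and -0.65 to 0.12 in control libraries. The defining fat cell gene *Adipoq*, which encodes adiponectin, was at 0.0350 CPM in cKO replicate 4, and *Adrb3*, at 2.10 CPM, was there at its lowest among the cKO libraries and above the highest control at 1.18 CPM. With cKO replicate 4 alone against the controls, the log2 fold change was 1.00 for *Adrb3* (adjusted p = 0.356), 0.83 for *Adra1d* (adjusted p = 0.120) and -0.86 for *Slc6a2*, assuming that the lone library varies like the controls. With the fat score in the model of all 8 libraries it was 0.97 for *Adrb3* (adjusted p = 0.148), 0.86 for *Adra1d* (adjusted p = 0.0325) and -0.89 for *Slc6a2*. No gene of the fat list passed edgeR's test, 9 of 10 had an unadjusted p under 0.05, and 8 passed in DESeq2. The part of fat cells in the difference of *Adrb3* was not tested.

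**Figure D2:**
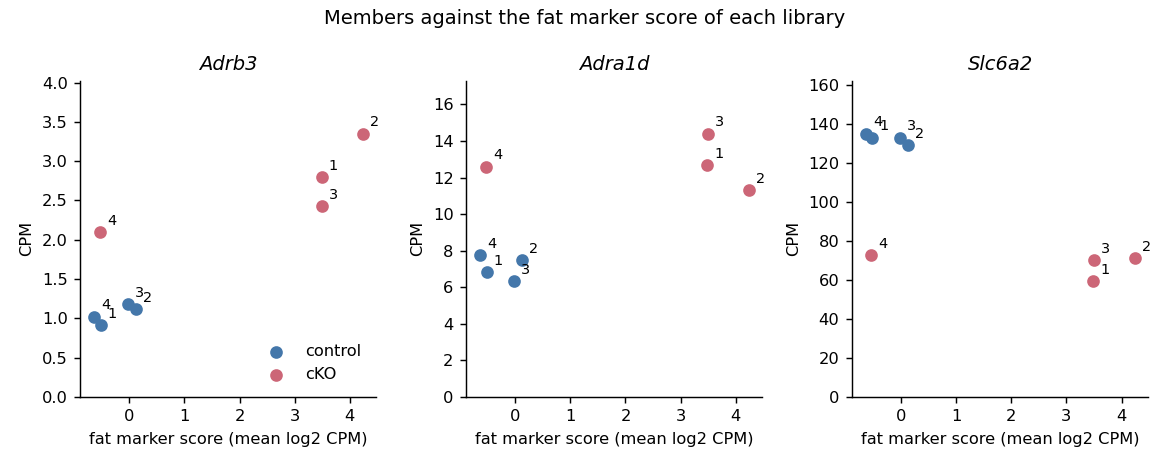
CPM of *Adrb3*, *Adra1d* and *Slc6a2* (vertical axes, from 0) against the fat score of each library (horizontal axes, mean log2 CPM), with numbers for the replicate. Replicate 4 of cKO had a fat score of -0.54, within the control range, and was apart from the controls in all 3 genes, with *Adrb3* at 2.10 CPM.

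Both genes that rose overlap an antisense RNA gene in the GENCODE M21 annotation. *Gm14285* covers 7.74% of the exon length of *Adra1d*, and *Gm45470* covers 18.8% of that of *Adrb3*. The libraries were made with a stranded kit, the strand setting of the counting is not given in the sources used here, and neither antisense gene has a row in the counts. Reads from a gene and its antisense partner may thus not be told apart.

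The other alpha-1 receptor genes did not pass the test. *Adra1a*, known for smooth muscle contraction, ranged over 7.00 to 9.36 CPM in controls and over 7.67 to 8.97 CPM in cKO libraries (log2 fold change 0.05, SE 0.11, adjusted p = 0.846 in edgeR). *Adra1b* ranged over 1.64 to 2.18 CPM in controls and over 1.81 to 2.76 CPM in cKO libraries (0.22, SE 0.19, adjusted p = 0.538). The 95% intervals of the log2 fold change (normal approximation from the SE) ran from -0.18 to 0.27 for *Adra1a* and from -0.16 to 0.60 for *Adra1b*. The interval of *Adra1d*, from 0.63 to 1.05, lies above both.

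The alpha-2 receptor genes did not pass either. *Adra2a*, which encodes the main presynaptic autoreceptor of sympathetic terminals, was at 40.6, 41.9, 30.7 and 33.9 CPM in control replicates 1 to 4 and at 31.0, 37.8, 37.1 and 37.3 CPM in cKO replicates 1 to 4. The genotypes lay within the same range, with a log2 fold change of -0.04 (SE 0.10, adjusted p = 0.870 in edgeR) and an interval from -0.24 to 0.16. *Adra2c*, another autoreceptor, ranged over 7.19 to 9.06 CPM in controls and over 8.66 to 9.90 CPM in cKO libraries (log2 fold change 0.20, SE 0.11, adjusted p = 0.312). *Adra2b*, known for vasoconstriction, ranged over 0.535 to 1.01 CPM in controls and over 0.832 to 1.24 CPM in cKO libraries (0.37, SE 0.26, adjusted p = 0.444), and its interval from -0.14 to 0.89 leaves a wide range at this depth.

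*Adrb1*, which encodes the beta-1 receptor known for its action on the heart, was at 0.978, 1.20, 2.07 and 1.18 CPM in control replicates 1 to 4 and at 1.90, 1.94, 2.06 and 1.54 CPM in cKO replicates 1 to 4. Control replicate 3 alone among the controls lay in the range of the cKO libraries or above. The log2 fold change was 0.46 (SE 0.24, adjusted p = 0.291 in edgeR), with an interval from -0.00967 to 0.939. It was 0.73 without control replicate 3 (adjusted p = 0.0891) and 0.17 with the fat score in the model (adjusted p = 0.966). That of *Adrb3* ran from 0.944 to 1.73, and the difference between the 2 genes was not tested.

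**Figure D3:**
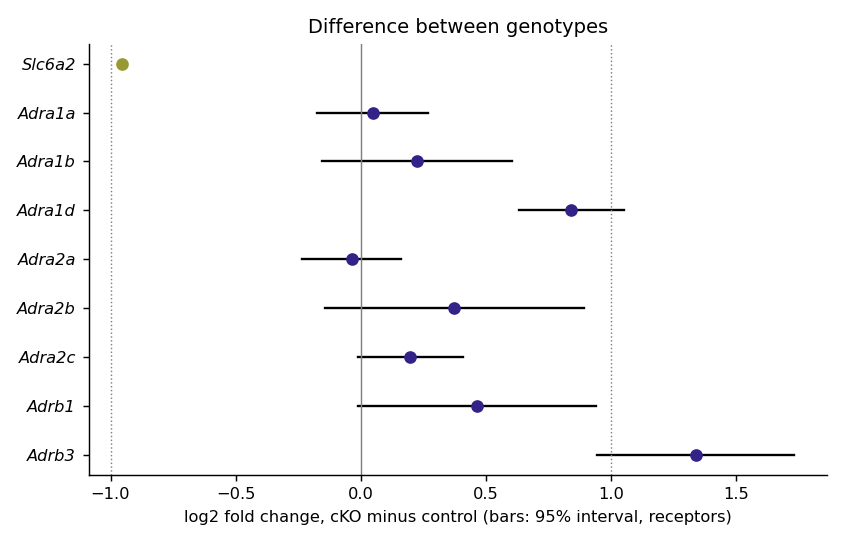
Log2 fold change between genotypes (horizontal axis, cKO minus control) of each gene, with bars for the 95% interval of the receptor genes and dotted lines at a 2-fold change. The bars of *Adra1d* and *Adrb3* do not reach 0, and *Slc6a2*, in another colour and with no bar, was chosen for its difference.

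Levels of different genes were compared per kilobase of exon length (GENCODE M21), which assumes that this length is the one transcribed in the uterus. In control uteri *Slc6a2* was at 21.0 ± 0.418 CPM per kb (SD, n = 4), above every receptor gene. *Adra2a* followed at 7.61 ± 1.10, *Adra1d* at 3.75 ± 0.338, *Adra2c* at 2.36 ± 0.239 and *Adra1a* at 1.20 ± 0.143 CPM per kb, and the libraries of neighbours in this order did not overlap. *Adra1b* (0.570), *Adrb1* (0.460) and *Adrb3* (0.366 CPM per kb) came next, and *Adrb1* overlapped both others. *Adra2b* was the lowest at 0.195 ± 0.0556 CPM per kb.

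In cKO uteri the order changed. *Slc6a2* was at 10.9 ± 0.955, *Adra2a* at 7.41 ± 0.659 and *Adra1d* at 6.72 ± 0.657 CPM per kb (SD, n = 4 per genotype), and *Adra2a* and *Adra1d*, at 6.42 to 7.82 and 5.96 to 7.56 CPM per kb, overlapped. *Adrb3* at 0.923 CPM per kb had a higher mean than *Adra1b* (0.666, with overlapping libraries) and *Adrb1* (0.631 CPM per kb, with none). The ratio of *Slc6a2* to *Adra2a* per length was 2.36 to 3.34 in control and 1.45 to 1.50 in cKO libraries. Of the summed level of the 8 receptor genes per length, the 3 alpha-1 genes made up 31.5% to 37.5% in control and 38.4% to 44.2% in cKO libraries, and the 3 alpha-2 genes made up 57.8% to 64.2% and 47.7% to 52.8%. The summed level of the alpha-2 genes was 10.2 ± 1.15 CPM per kb in controls and 10.4 ± 0.577 CPM per kb in cKO, that of the alpha-1 genes 5.52 ± 0.385 and 8.63 ± 0.683, and that of all 8 genes 16.5 ± 1.06 and 20.5 ± 0.603 CPM per kb (SD, n = 4 per genotype). The lower alpha-2 share thus went with a higher total, and the alpha-2 sums of the genotypes overlapped.

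**Figure D4:**
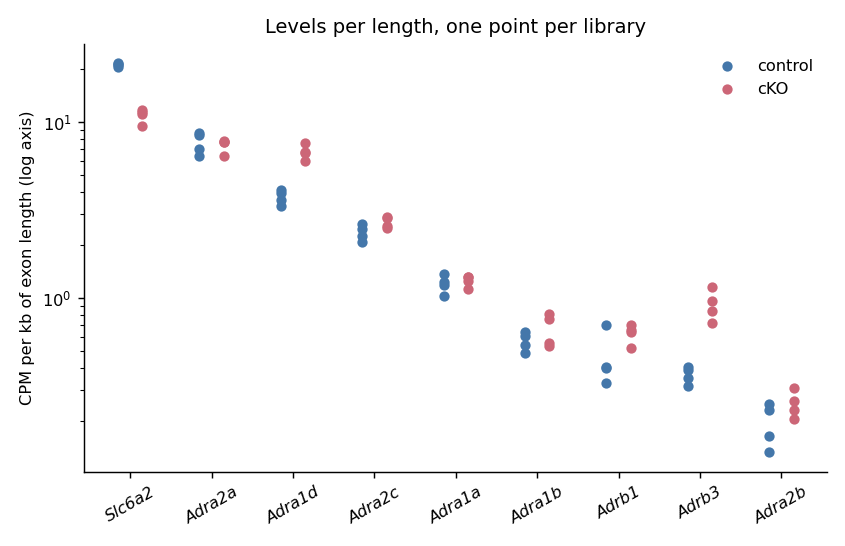
Level of each gene per kilobase of exon length (vertical axis, log scale), with 1 point per library, ordered by the control mean. *Slc6a2* was the highest in both genotypes, at 21.0 CPM per kb in control and 10.9 CPM per kb in cKO uteri, and *Adra1d* in cKO uteri reached the range of *Adra2a*.

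Genes of norepinephrine synthesis and storage differed widely in level, and 4 of 13 were under the filter, *Th*, *Dbh*, *Pnmt* and *Chga*. *Th*, which encodes the rate-limiting enzyme of catecholamine synthesis, had at most 4 counts in any library, and *Dbh*, whose enzyme makes norepinephrine from dopamine, had at most 12 counts. Their levels were at most 0.123 CPM for *Th* and at most 0.464 CPM for *Dbh*, in libraries that held 1532 to 4903 counts of *Slc6a2*. Of 13 genes of synthesis and storage, 9 were tested and 0 passed in edgeR, where 5.34% of all genes tested passed in either direction. Of these 9, 1 had an unadjusted p under 0.05 in edgeR and 0 were called by DESeq2 (median log2 fold change 0.09). *Slc18a2*, which encodes the vesicular monoamine transporter and is also expressed in mast cells, averaged 3.11 ± 0.326 CPM in controls and 3.32 ± 0.521 CPM in cKO (SD, n = 4 per genotype, log2 fold change 0.09, adjusted p = 0.771).

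Markers of sympathetic neurons were in part detected. Of 19 genes, 10 were tested and 1 rose (2.62% of all genes tested did), *Syt1*, which encodes a sensor of vesicle release and is not particular to sympathetic neurons (log2 fold change 0.63, SE 0.12, adjusted p = 0.00933 in edgeR). The summed level of the list ranged over 48.5 to 59.9 CPM in controls and over 60.6 to 75.0 CPM in cKO libraries. It thus did not fall with *Slc6a2*. Of 8 Schwann cell markers, 4 rose (*Sox10*, *Foxd3*, *Erbb3* and *Cdh19*), where 2.62% of all genes tested did, with adjusted p-values from 0.0260 to 0.0467 and a summed level of 73.0 to 83.0 CPM in control and 86.1 to 102 CPM in cKO libraries. *Erbb3* is also known in epithelium. The 4 calls were lost in 4 to 7 of the 8 fits without 1 library, in each gene without control replicate 1, control replicate 3 or cKO replicate 1, with an adjusted p of up to 0.149. None passed with the fat score in the model. The log2 fold changes were then 0.50 for *Sox10*, 1.18 for *Foxd3*, 0.46 for *Erbb3* and 0.65 for *Cdh19*. In the main fit they were 0.92, 1.27, 0.33 and 1.02. *Syt1* passed in all 8 fits without 1 library (adjusted p up to 0.0402) and not with the fat score (log2 fold change 0.45, adjusted p = 0.369). The part of these cells in the differences of *Slc6a2*, *Adra1d* and *Adrb3* was not tested.

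Of the genes of uptake and breakdown, *Maob*, which encodes a mitochondrial monoamine oxidase, fell, from 50.9 ± 6.21 in controls to 35.5 ± 4.23 CPM (SD, n = 4 per genotype, log2 fold change -0.52, SE 0.10, adjusted p = 0.0118 in edgeR). It was the only gene to pass of 9 tested, where 5.34% of all genes tested passed in either direction. *Maoa*, whose enzyme prefers norepinephrine and serotonin, ranged over 133 to 143 CPM in controls and over 105 to 126 CPM in cKO libraries (log2 fold change -0.23, SE 0.06, adjusted p = 0.0592). *Slc22a3*, which encodes a transporter that takes up norepinephrine outside nerves, was at 87.3 ± 17.2 CPM in controls and 86.3 ± 11.4 CPM in cKO (SD, n = 4 per genotype, log2 fold change -0.02, adjusted p = 0.963). The median of the list was -0.02.

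Downstream of the receptors, 3 of 34 genes for G proteins and effectors passed (8.82%, against 5.34% of all genes tested), and all 3 fell. *Gna14*, a Gq family alpha subunit, fell from 19.7 ± 1.43 to 8.65 ± 1.11 CPM (SD, n = 4 per genotype, log2 fold change -1.18, SE 0.10, adjusted p = 5.86e-05 in edgeR), and its 4 cKO libraries, at 7.38 to 9.77 CPM, lay under all controls at 17.9 to 20.8 CPM. *Adcy7*, an adenylyl cyclase, also fell (log2 fold change -0.66, SE 0.07, adjusted p = 0.000249), as did *Gnaz*, a Gi family alpha subunit (-0.64, SE 0.10, adjusted p = 0.00312). The median of the 34 genes was -0.06. The alpha subunit genes *Gnaq* (log2 fold change -0.08, adjusted p = 0.545) and *Gnas* (0.04, adjusted p = 0.738) did not pass. With the fat score in the model, *Gna14* (log2 fold change -1.05, adjusted p = 0.0100) and *Adcy7* (-0.70, adjusted p = 0.0156) still passed. *Gnaz* (adjusted p = 0.185) and *Maob* (adjusted p = 0.246) did not. Their log2 fold changes were then -0.53 for *Gnaz*, against -0.64 in the main fit, and -0.53 for *Maob*, against -0.52.

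Of 20 genes that desensitise the receptors or limit cyclic AMP, 1 rose and none fell, which is 5.0% of the list and near the 5.34% of all genes tested that passed in either direction. There was 1 lower call in DESeq2, in the likelihood ratio test, with no filter, with the replicate block and without control replicate 4. The gene that rose was *Akap5*, which encodes an anchoring protein of protein kinase A (log2 fold change 0.37, SE 0.09, adjusted p = 0.0280 in edgeR). Its call was lost in 6 of the 8 fits that each left out 1 library, namely each except those lacking control replicate 2 or cKO replicate 4, with an adjusted p of up to 0.0913, and with the fat score in the model the log2 fold change was 0.21 (adjusted p = 0.668). The median of the list was 0.09, and *Arrb1* (log2 fold change -0.26, adjusted p = 0.0627), which encodes a beta-arrestin, did not pass.

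Of 18 genes for growth cues of sympathetic fibres, 3 passed, 2 higher and 1 lower (16.7%, against 5.34% of all genes tested). *Gdnf*, which encodes a neurotrophic factor, fell from 6.88 ± 0.671 to 4.40 ± 0.787 CPM (SD, n = 4 per genotype, log2 fold change -0.64, SE 0.15, adjusted p = 0.0258), and *Sema3f*, a repulsive guidance cue, rose (log2 fold change 0.28, SE 0.07, adjusted p = 0.0467). The median of the list was 0.16. The calls of *Gdnf* and *Sema3f* were lost in 5 and 6 of the 8 fits without 1 library, with adjusted p-values of up to 0.0871 and 0.132, both without control replicate 1. The libraries concerned were control replicates 1 and 4 and cKO replicates 1 to 3, and for *Sema3f* also control replicate 3. With the fat score in the model the log2 fold change was 0.12 for *Sema3f* (adjusted p = 0.824) and -0.50 for *Gdnf* (adjusted p = 0.520), and *Sema3f* was also lost in limma-voom (adjusted p = 0.0551).

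**Figure D5:**
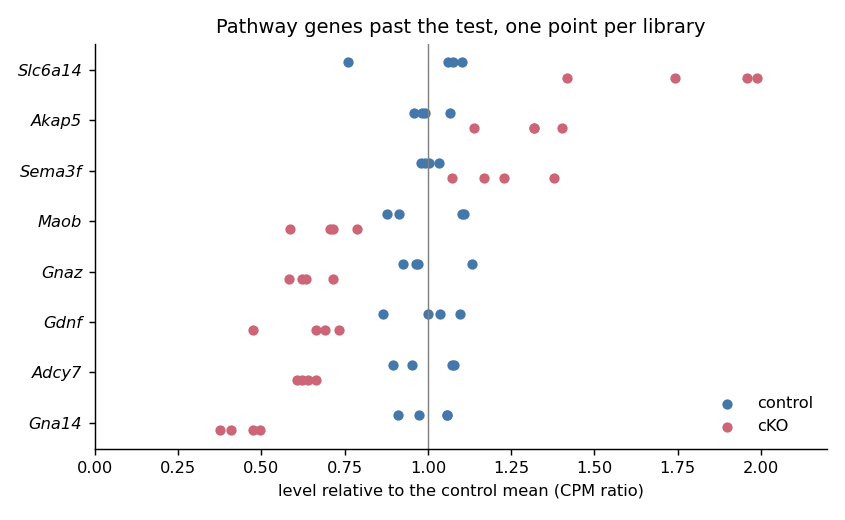
Level of 8 of the 9 pathway genes that passed the test, relative to the mean of the 4 control libraries (horizontal axis, ratio of CPM), with 1 point per library. *Slc6a14*, *Akap5* and *Sema3f* were higher and the other 5 genes lower in cKO libraries, and *Gna14* had the lowest ratios.

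Within the transporter family of *Slc6a2*, 9 of 18 other genes were tested and 1 passed (11.1%, against 5.34% of all genes tested). *Slc6a14*, an amino acid transporter, rose from 4.86 ± 0.781 to 8.64 ± 1.28 CPM (SD, n = 4 per genotype, log2 fold change 0.83, SE 0.15, adjusted p = 0.00690 in edgeR). With the fat score in the model its log2 fold change was 0.99 (adjusted p = 0.0608). *Slc6a6*, the taurine transporter, was at 440 ± 23.0 CPM in controls and 466 ± 37.5 CPM in cKO (SD, n = 4 per genotype, log2 fold change 0.08, adjusted p = 0.519). The dopamine transporter gene *Slc6a3* had at most 2 counts in any library. The median of the list was -0.01.

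Of the 5 counted genes on each side of *Slc6a2* on chromosome 8, 5 were tested, none fell and 1 rose (of all genes tested, 2.71% fell and 2.62% rose). *Mmp2*, a matrix metalloproteinase gene 107 kb before it, was at 792 ± 36.1 CPM in controls and 712 ± 66.4 CPM in cKO (SD, n = 4 per genotype, log2 fold change -0.15, adjusted p = 0.235 in edgeR). *Lpcat2* (0.14), *Irx5* (0.74) and *Ces1e* (0.10) did not pass, with adjusted p-values of 0.572, 0.190 and 0.694. The carboxylesterase gene *Ces1d*, 164 kb after it, rose from 7.97 ± 0.906 to 12.5 ± 1.41 CPM (SD, n = 4 per genotype, log2 fold change 0.65, SE 0.12, adjusted p = 0.00592). *Ces1a*, the nearest gene after *Slc6a2* at 18.5 kb, had at most 3 counts.

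Over the 8 libraries the genes whose log2 levels were most like that of *Slc6a2* were *Scube1* (Pearson r = 0.998), *Plppr5* (0.990), *Enc1* (0.990), *Ndp* (0.989) and *Mitf* (0.988), out of 14297 genes with a symbol and a mean of at least 1 CPM. The points share libraries and genotype, and the log2 fold changes of these genes lay between -0.50 (*Enc1*) and -1.08 (*Ndp*). *Scube1* averaged 80.8 ± 3.57 CPM in controls and 39.0 ± 3.88 CPM in cKO (SD, n = 4 per genotype). After the mean of each genotype was subtracted, the most alike genes were *Nipa1* (r = 0.986), *Shc3* (0.984), *Kcnip3* (0.972), *Ythdf3* (0.972) and *Tbc1d12* (0.965), and none of them was among the first 5. Within genotypes *Slc6a2* varied mostly through cKO replicate 1, at 59.5 CPM against 70.0 to 72.7 CPM in the other cKO libraries. The r values after subtraction thus rest largely on that library. Among the 7 receptor genes compared (*Adra2b* was under 1 CPM on average), r over the 8 libraries was lowest in *Adrb3* (-0.955) and *Adra1d* (-0.953). After the genotype means were subtracted it was -0.254 in *Adrb3* and -0.101 in *Adra1d*, and *Adra1b* was lowest (-0.704).

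Markers of the uterus were present, with stromal, smooth muscle and epithelial lists at sums of 9520 CPM or more, 7500 CPM or more and 1160 CPM or more in every library. Of 10 stromal markers 3 passed (5.34% of all genes tested did), of which *Hoxa10* (log2 fold change -0.62) and *Hoxa11* (-0.49) fell and *Col3a1* (0.36) rose. Of 9 pericyte markers 1 rose (2.62% of all genes tested did), *Higd1b* (0.95, adjusted p = 0.0215), and 6 of the 9 had a log2 fold change under 0 (median -0.03). The calls of *Col3a1* and *Higd1b* were lost in 6 and 5 of the 8 fits without 1 library, with an adjusted p of up to 0.124 and 0.0703, both highest without cKO replicate 3, and with the fat score in the model *Col3a1* was at 0.13 (adjusted p = 0.868), *Higd1b* at 0.83 (0.382) and *Hoxa11* at -0.60 (0.0657). No marker passed in edgeR for smooth muscle, epithelium, endothelium, mesothelium, macrophages or mast cells, with 2, 2, 3, 0, 0 and 4 at an unadjusted p under 0.05 and 1, 1, 0, 0, 0 and 2 called by DESeq2.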

How the data were processed

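RNA-seq was made from whole uteri at PD10 (n = 4 per genotype). Per the labels and the methods of the study, the authors used Trimmomatic and FastQC on the reads, HISAT2 for alignment to GRCm38 and featureCounts for the gene counts. The authors deposited raw counts per Entrez gene. The annotation release and strand setting are not given in the sources used here. The deposited table of the authors' edgeR comparison holds fold changes, F values and p-values, of which only the gene symbols were used, and their log2 CPM table was not used.

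Symbols were found for 25440 of 27179 genes. Counts were tested in R 4.3.3 with edgeR 4.0.16 (CPM over 0.2 in at least 4 libraries, TMM, glmQLFit with robust = TRUE, glmQLFTest, prior count 0.125, Benjamini-Hochberg over 16658 genes, adjusted p under 0.05). The standard error is the size of the log2 fold change divided by the square root of F. CPM values use TMM-normalized library sizes. Alternatives were other scalings and filters, limma-voom (limma 3.58.1), DESeq2 1.42.0, the likelihood ratio test, robust = FALSE, a prior count of 2, a replicate block, leaving out each library, the fat score as a model term and cKO replicate 4 alone. On simulated counts for this comparison the test recovered 199 of 200 genes changed 4-fold, with 14 false calls, and made 0 calls where nothing changed. The changed genes were not drawn from the lowest levels, and smaller changes were not simulated. The recovery thus does not measure the power for the receptor genes that did not pass.

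The members, 6 pathway lists and 11 marker lists were chosen with earlier results of these data known. Besides members, the text names *Ezh2*, pathway genes that passed, genes at or near 0, the genes most like *Slc6a2* and its neighbours. Any other list gene was picked with its values known. Some genes of the lists are not reported here. A count of 0 allows up to 0.0824 to 0.117 CPM (3 counts, counting error only). No 2 libraries agreed within sampling noise (chi-square per gene from 7.54 to 30.6 over 28 pairs). Libraries carry no batch label.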

Additional observations from a re-analysis of the deposited data

Results flagged for a closer look

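Of 18 groups of 4 libraries examined (9 genes in 2 genotypes), 1 held a library far from the others. *Adra2a* was at 31.0 CPM in cKO replicate 1, against 37.1 to 37.8 CPM in the other cKO libraries. Chance flags about 1 in 20 such groups.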

How the results depend on the processing

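With 21 alternatives, 158 of 167 values of single receptor genes kept their direction and their side of the threshold. The difference in *Slc6a2* went from -0.98 to -0.89 when 1 library was left out and was -0.86 with cKO replicate 4 alone. The number of receptor genes that passed, 2 in the fits without 1 library, was 1 with the fat score in the model and 0 with cKO replicate 4 alone (2 at an unadjusted p under 0.05, edgeR). Of the pathway genes, 9 of 99 tested passed, against 14 in DESeq2, 2 with the fat score and 1 with cKO replicate 4 alone, and 6 to 12 without 1 library. Over all genes 889 passed, against 1510 in DESeq2, 1512 in the likelihood ratio test, 110 with the fat score, 35 with cKO replicate 4 alone and 409 to 1812 without 1 library (409 without control replicate 1, 585 without control replicate 3, 459, 487 and 540 without cKO replicates 1, 2 and 3, and 1812 without cKO replicate 4). The sign turned in genes near 0, with *Adra2a* from -0.114 to 0.0300 and *Adra1a* from -0.0218 to 0.116 without 1 library, and with *Adra2a* at 0.0290 and *Adra1b* at -0.0188 with cKO replicate 4 alone. The cause was not tested. Libraries of the same number shared only a number (r of their deviations from -0.00354 to 0.194, and each other's best match for 1 of 4 numbers). With the replicate number as a block (replicate block), *Slc6a2* was at -0.96 and *Adrb3* at 1.32, 2 receptor genes and 10 pathway genes passed, and 1240 genes passed in all. With log2(CPM + 1), 4 and 5 of the 5 genes most like *Slc6a2* were shared. At this depth the intervals of *Adra2b* and *Adrb1*, with 15 to 67 counts per library, stay wide.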
